A study of Mus musculus with 9 samples.

Results

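Cells keep their proteins folded with chaperones, and the mRNAs described here encode those of the cytosol and of the endoplasmic reticulum (ER), together with the switches that control them. The list held 50 genes, taken by symbol from the heat shock proteins, the TRiC chaperonin and the unfolded protein response (UPR). Of these, 49 had a row in the deposited table of 22526 genes, and Bag3 was not analysed here. A further 7 (Hspa1a, Hspa1b, Bag1, Stub1, Hsf2, Cct6a and Xbp1) stayed below a filter of 1 FPKM in at least 3 libraries, so 42 of the 9168 tested genes are members. FPKM are read fragments scaled to transcript length and library size. This is meant to let levels be compared between genes, but low values need care in these files, as given below.

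The samples were oocytes of ICR mice, an outbred strain, at metaphase II, the stage of the ovulated egg. The 3 groups were young, aged and NMN, the last supplemented with nicotinamide mononucleotide, a precursor of the coenzyme NAD, and each had 3 libraries. All were made by Smart-seq2, an oligo(dT)-primed full-length cDNA method with heavy amplification. The labels give no ages, no dose or route of NMN, no age of the NMN mice and no number of oocytes or mice per library. The title of the study concerns NMN in maternal ageing, so NMN against aged is the comparison it names. P-values therefore speak to library spread alone, part or all of which may be technical, and fewer cells of a type and less RNA per cell cannot be told apart.

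HSP70 proteins bind unfolded stretches and are driven by J proteins, which stimulate their ATPase, and by HSP110 exchange factors, which reset them. HSP90 takes late folding intermediates from HSP70 with the help of cochaperones, and TRiC is a ring of 8 different subunits that folds actin and tubulin, the proteins of the meiotic spindle and cortex. The ER has its own HSP70, HSP90, J proteins, disulfide isomerases and lectins. Hsf1 switches on the cytosolic set and, as a maternal factor of the mouse oocyte, Hsp90aa1. The sensors Ern1 (IRE1), Eif2ak3 (PERK) and Atf6 switch on the ER set. Transcription is largely silent in fully grown oocytes, so the mRNA of an ovulated egg is mostly a store made during growth.

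The heat shock response and the UPR act through different promoter elements, and these are shown because they group the members independently of any expression value. Promoters of 250 bases before to 50 after the start were taken from RefSeq (build GRCm38.p6), and 42 of the 50 symbols matched. The ER stress element was searched on both strands as CCAAT and CCACG with 9 free bases between. It was found for 6 members, all from the ER groups, and in 0.119% of the 32851 promoters in the table. The heat shock element was searched in 3 overlapping forms, each on both strands. GAANNTTC was found for 9 members (7.86% of all promoters) and TTCNNGAA for 6 (8.52%). The longer form, GAANNTTC followed by NNGAA, contains both and was found for 2, Dnajb6 and Hsph1 (0.603%). A match is a description of letters and not a binding site. The choice of windows is not independent of expression: Hspb1 and Dnajb6 are among the members with the smallest p in aged against young. Other members that match an element are not shown. The windows below are on the strand of the gene, 5′ to 3′, with the matched letters in capitals and short flanks where an annotated exon lies close. They come from chr5:135887778-135887853 (+, Hspb1), chr5:29735847-29735869 (+, Dnajb6), chr2:34772020-34772048 (+, Hspa5), chr10:86705528-86705556 (-, Hsp90b1), chr8:84847051-84847117 (-, Calr) and chr11:50325776-50325842 (-, Canx). Hsp90b1 has a further ER stress element match on the strand of the gene, at bases -212 to -194 from the start, outside the window shown.
Hspb1, with GAANNTTC at 2 places: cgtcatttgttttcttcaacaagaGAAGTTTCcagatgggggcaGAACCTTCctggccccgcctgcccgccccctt
Dnajb6, with the longer heat shock form: tccgaGAATCTTCCGGAAcgcta
Hspa5, with the ER stress element: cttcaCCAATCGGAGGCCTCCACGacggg
Hsp90b1, with the ER stress element on the other strand: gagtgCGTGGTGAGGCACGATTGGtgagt
Calr, with the ER stress element on the other strand: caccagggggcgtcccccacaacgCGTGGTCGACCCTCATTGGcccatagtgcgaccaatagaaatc
Canx, with the ER stress element: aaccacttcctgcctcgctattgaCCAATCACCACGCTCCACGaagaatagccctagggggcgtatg

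Depth was 16.28 to 19.25 M reads per library, as estimated from the low values, and 3 reads on a transcript of 2 kb would give 0.0779 to 0.0921 FPKM. Only a limited range of depths was searched, because multiples of a fitting depth fit as well, so the scale rests on that range. The 12 oocyte markers, Gdf9, Bmp15 and the zona pellucida genes among them, summed to 12418 to 19653 FPKM. Of 16 markers of cumulus and granulosa cells 15 had a row. Their sum was 6.07 to 7.93 FPKM in young, 4.14 to 23.0 in aged and 3.72 to 5.18 in NMN libraries, with the 23.0 in aged replicate 2. In that library Ptx3, Inha, Fst, Tnfaip6 and Foxl2 were above 0, and all 5 were listed at 0 in the other 8. Not all markers were high there. Cyp19a1, most of the sum in young libraries (5.27 to 6.21 FPKM), had its lowest value in aged replicate 2, at 3.03 FPKM. Lhcgr was listed at 0 in that library and at up to 0.405 FPKM in young. Of genes every cell uses, Hprt was at 171 to 248 FPKM and Rplp0 at 34.7 to 56.8 FPKM. Low values still need care in these files: Gapdh and Rpl3, also used by every cell, were at 0.276 to 1.01 and 0 to 0.256 FPKM, and 46 of 76 cytosolic ribosomal protein genes had a mean under 1 FPKM. A member listed near 0 is therefore reported as listed, not as absent.

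No member passed the limma test on log2(FPKM + 1) at an adjusted p under 0.05 in any of the 3 comparisons. In aged against young oocytes this was 0 of 42, where 2.17% of all tested genes were called. At an unadjusted p under 0.05 there were 5 members, or 11.9%, against a background of 18.3%. Of these Hspb1, Hspa8, Dnajb6 and Cct5 were higher in aged oocytes (background 9.26%) and Cct7 was lower (9.02%). Groups were fully separate for 7 members, or 16.7%, against 23.8%: 5 were higher in aged (background 12.6%), with Hsf1 added, and 2 lower (11.2%), with Ptges3 added. Here and below, separation was judged on FPKM as deposited, before the scaling used for limma. Narrow gaps can close after scaling. That of Hsf1 in aged against young does so. Once divided by the factors, aged replicate 2 (82.5 FPKM, factor 1.12) falls below young replicate 3 (74.4 FPKM, factor 0.960). In NMN against aged oocytes 0 of 42 passed (background 0.218%), and 4 had an unadjusted p under 0.05, or 9.52% against 11.4%. Cct7 and Hsph1 were higher in NMN (background 6.27%), and Hspb1 and Atf4 were lower (5.1%). Groups were fully separate for 3 members, or 7.14% against 15.6%, with Cct7 and Ern1 higher (9.09%) and Hspa8 lower (6.51%). In NMN against young oocytes 0 of 42 passed (background 0.0764%), and 2 had an unadjusted p under 0.05, or 4.76% against 8.12%, with Eif2ak3 higher (4.05%) and Cct4 lower (4.07%). Groups were fully separate for 5 members, or 11.9% against 16.6%: Dnajb6, Eif2ak3, Hsf1, Hspa4 and P4hb were higher in NMN (9.58%) and 0 were lower (6.99%). Once divided by the scaling factors, NMN and young overlap for Dnajb6, Hsf1, Hspa4 and P4hb, and Eif2ak3 stays separate. The share over all genes after scaling was not counted. Counted in either direction, the members' shares were under the background in each comparison.

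Over the list as a whole, higher and lower members were about balanced. The median log2 change over the 42 members was -0.04 in aged against young, 0.00 in NMN against aged and 0.04 in NMN against young. Over all tested genes it was -0.04, 0.03 and 0.01. The median coefficient of variation over the 9 libraries was 20.7% for members and 29.1% for all tested genes, with no allowance for level. As deposited, aged replicate 2 gave the highest of the 9 values for 16 members (38.1%) and for 27.1% of all tested genes. It also gave the lowest value for 7 members (16.7%) and for 21.6% of all tested genes. The part of cumulus RNA in its values was not tested.

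**Figure D1:**
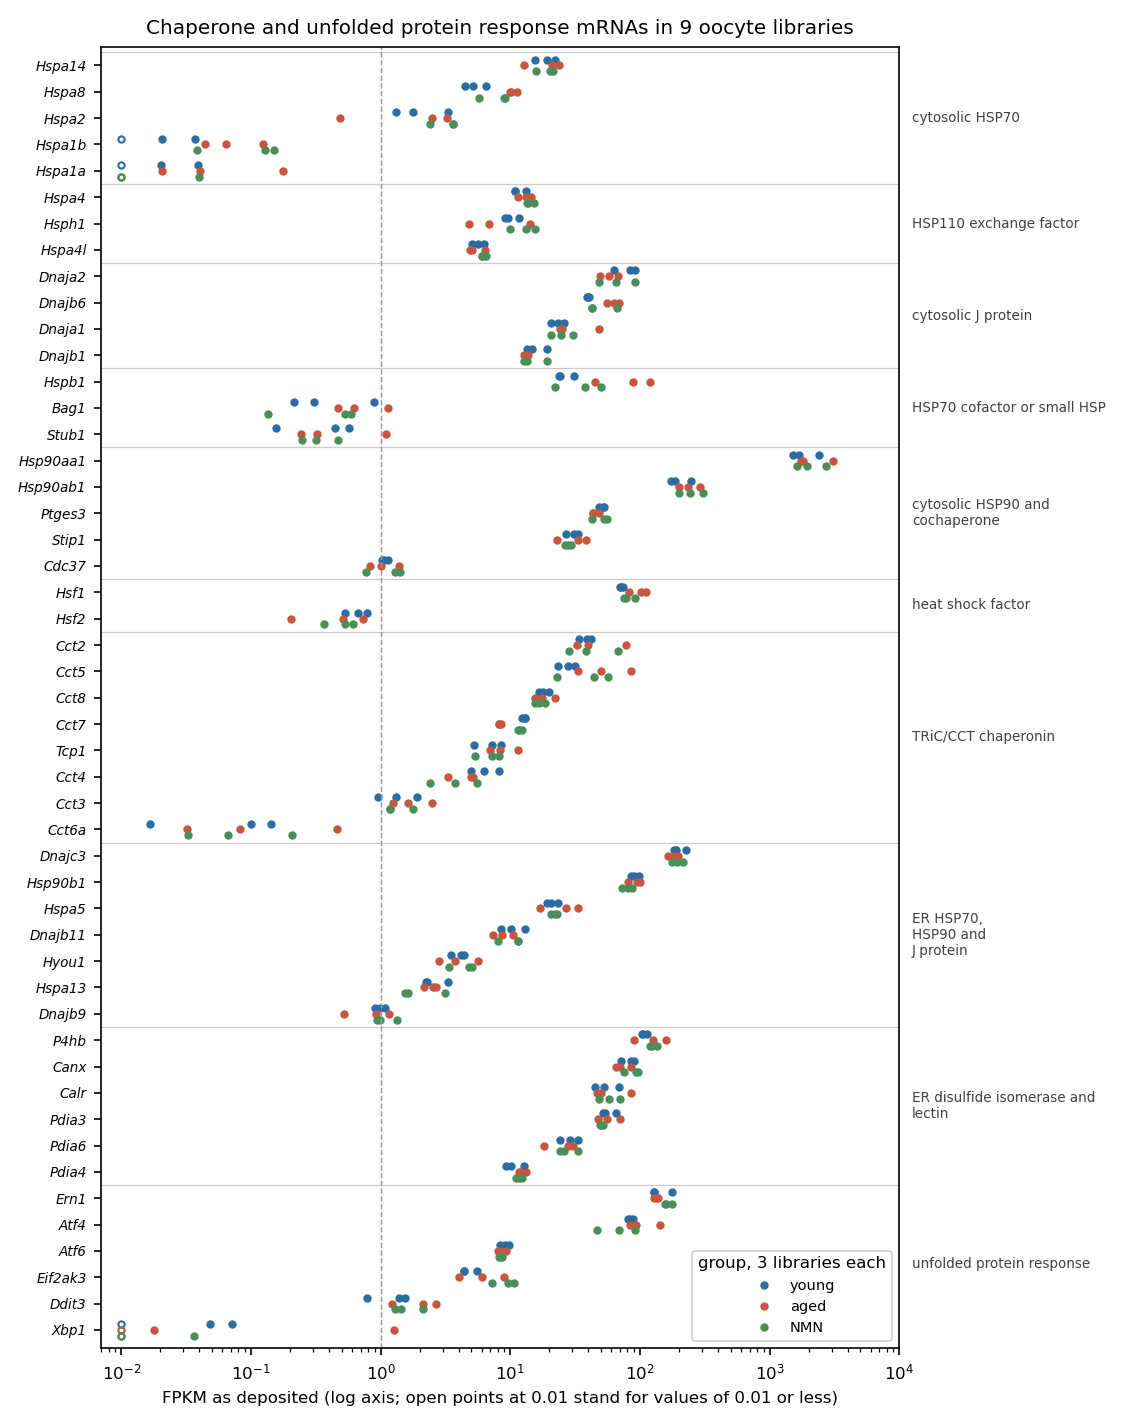
FPKM as deposited on a log axis for the 49 members with a row, grouped by role. Each point is 1 library, and the dashed line marks 1 FPKM. Hsp90aa1 lies above 1500 FPKM in every library, and Hspa1a, Hspa1b and Cct6a lie below 0.5 FPKM in every library.

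The cytosolic HSP90 system was the most abundant part of the list. Hsp90aa1, the heat-inducible HSP90 and a target of Hsf1, stood at 2413, 1694 and 1523 FPKM in young replicates 1 to 3, 1748, 3102 and 1815 in aged and 2708, 1609.9 and 1955 in NMN. It ranked 16 of 9168 tested genes by mean level and alone made up 49.0 to 60.4% of the summed FPKM of the members. Its highest values were in aged replicate 2, NMN replicate 1 and young replicate 1, so the groups overlapped throughout. The log2 change was 0.16 in aged against young (95% interval -0.38 to 0.71), -0.06 in NMN against aged (-0.61 to 0.49) and 0.10 in NMN against young (-0.44 to 0.65).

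Hsp90ab1, the constitutive HSP90, followed the same libraries at 173 to 304 FPKM, and the ratio of Hsp90aa1 to Hsp90ab1 stayed between 7.796 and 10.6. The cochaperone Ptges3 (p23), which closes the HSP90 cycle, was at 52.2, 52.8 and 48.7 FPKM in young replicates 1 to 3, 43.1, 43.6 and 48.2 in aged and 42.7, 52.6 and 55.4 in NMN. Its aged values all lay under the young ones, by a small margin, and those of NMN spanned both (limma adjusted p = 0.506 for aged against young). Stip1, the adaptor that hands clients from HSP70 to HSP90, had 22.9 to 38.1 FPKM, and Cdc37, which loads kinases onto HSP90, 0.775 to 1.41 FPKM. Over Hsp90ab1, Stip1 and Cdc37 the limma adjusted p in the 3 comparisons ran from 0.641 to 0.981.

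Among the cytosolic HSP70 proteins, Hspa8 had the lowest p in aged against young. Hspa8, the constitutive HSC70, was at 5.13, 4.47 and 6.52 FPKM in young replicates 1 to 3, 10.2, 11.3 and 10.02 in aged and 9.095, 5.72 and 8.89 in NMN. The aged libraries lay above all others, and the NMN libraries lay between, with replicate 2 inside the young range. The mean was 5.37 ± 1.05 FPKM in young, 10.5 ± 0.686 in aged and 7.901 ± 1.89 in NMN (SD, n = 3). On the log2 scale the change was 0.81 ± 0.20 SE in aged against young (limma adjusted p = 0.0743), -0.38 ± 0.20 in NMN against aged (adjusted p = 0.511) and 0.43 ± 0.20 in NMN against young (adjusted p = 0.626). Hspa8 has processed pseudogenes, and how reads that match several genes were shared out is not given in the sources used here.

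For the other HSP70 genes the groups overlapped or the values were too low to test. Hspa14, an HSP70-like protein bound to ribosomes, was at 15.6, 22.2 and 19.3 FPKM in young replicates 1 to 3, 23.8, 12.8 and 21.1 in aged and 15.9, 21.2 and 20.1 in NMN, with aged replicates 1 and 2 at opposite ends of the range. It shares an exon stretch with Gm45902 on the same strand, listed at 0 to 0.303 FPKM. Hspa2, the HSP70 known from meiotic germ cells, ranged from 0.488 to 3.61 FPKM with the lowest value in aged replicate 2. The heat-inducible pair Hspa1a and Hspa1b were listed at 0 to 0.175 and 0 to 0.151 FPKM. The 2 genes are near-identical copies, and most of these values lie under the 3-read level given above. The limma adjusted p of Hspa14 and Hspa2 ran from 0.625 to 0.981 over the 3 comparisons.

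HSP110 proteins release ADP from HSP70 and so set the pace of its cycle. Hsph1 (HSP110, also known as HSP105) was at 11.7, 9.12 and 9.64 FPKM in young replicates 1 to 3, 4.84, 14.1 and 6.86 in aged and 15.5, 9.98 and 13.2 in NMN. Aged replicates 1 and 3 were the lowest of the 9 libraries, while aged replicate 2 lay in the NMN range. In NMN against aged the log2 change was 0.64 ± 0.28 (limma unadjusted p = 0.0427, adjusted p = 0.423). Without aged replicate 1 it was 0.39 (adjusted p = 0.646) and without aged replicate 2 0.96 (adjusted p = 0.121), and over all alternatives the adjusted p ran from 0.0479 to 0.683. Hspa4 was at 10.8, 10.8 and 13.1 FPKM in young replicates 1 to 3, 13.2, 14.4 and 11.5 in aged and 13.8, 13.5 and 15.3 in NMN. As deposited, the NMN values lay just above the young ones, and after scaling they overlap. The limma adjusted p for NMN against young was 0.776. Hspa4l, a germ-cell-rich relative, ranged from 4.89 to 6.54 FPKM.

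J proteins deliver clients to HSP70, and of the 4 cytosolic ones Dnajb6 was the 1 whose aged and young libraries did not overlap. Dnajb6, an inhibitor of protein aggregation, was at 39.9, 40.4 and 38.9 FPKM in young replicates 1 to 3, 62.98, 68.7 and 55.7 in aged and 65.9, 42.9 and 42.97 in NMN. As deposited, the young libraries were close together and below the rest. After scaling, NMN replicate 3 falls within the young range. NMN replicates 2 and 3 were close to young, and NMN replicate 1 was in the aged range. This gave a log2 change of 0.58 ± 0.19 in aged against young (limma adjusted p = 0.148) and -0.31 ± 0.19 in NMN against aged (adjusted p = 0.5599). It shares an exon stretch with Gm5129 on the other strand, which was listed at 0 in 8 libraries and at 0.202 FPKM in NMN replicate 3. Dnaja2 was at 63.2, 84.3 and 90.9 FPKM in young replicates 1 to 3, 57.7, 48.7 and 67.3 in aged and 48.5, 91.96 and 64.99 in NMN, highest in NMN replicate 2 and young replicate 3, with overlapping groups. Dnaja1 ranged from 20.6 to 48.1 FPKM, with 48.1 in aged replicate 2 and at most 30.6 elsewhere, and Dnajb1, the partner of inducible HSP70, from 12.8 to 19.2 FPKM.

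The small heat shock protein Hspb1 (HSP25, the mouse form of HSP27), which holds unfolded proteins without ATP and binds actin, had the lowest p of all members in aged against young oocytes. Its values were 31.2, 23.6 and 24.2 FPKM in young replicates 1 to 3, 88.6, 119 and 44.9 in aged and 37.5, 22.2 and 49.6 in NMN. All 3 aged libraries exceeded all young ones, but they differed among themselves, and aged replicate 3 lay under NMN replicate 3. The means were 26.3 ± 4.19, 84.1 ± 37.2 and 36.4 ± 13.8 FPKM (SD, n = 3), so the aged mean was 3.195 times the young one. The log2 change, taken on scaled log2(FPKM + 1) values, was 1.49 ± 0.34 SE (95% interval 0.73 to 2.24, limma unadjusted p = 0.00129, adjusted p = 0.0545).

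In NMN against aged oocytes the log2 change of Hspb1 was -1.14 ± 0.34 (limma unadjusted p = 0.00699, adjusted p = 0.243), and against young it was 0.35 ± 0.34 (adjusted p = 0.797). With library quality weights the change in NMN against aged was -0.60 (adjusted p = 0.3101, 0.175 to 0.571 over all alternatives). Which side of the threshold Hspb1 fell on in aged against young turned on single libraries. The adjusted p was 0.0385 without aged replicate 3 and 0.0495 without NMN replicate 2, and over all alternatives it ran from 0.0261 to 0.203. Without aged replicate 2, the library with the highest cumulus marker sum, the log2 change was 1.25 (adjusted p = 0.102). The table also holds the pseudogene Hsp25-ps1, at 0.255 to 2.44 FPKM, so Hspb1 values are uncertain by whatever reads the copies exchanged. The cofactors of HSP70 in this group were not tested: Bag1, an exchange factor, was listed at 0.134 to 1.14 FPKM and Stub1 (CHIP), the ubiquitin ligase for chaperone clients, at 0.155 to 1.102.

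Hsf1, the transcription factor of the heat shock response, was well above its relative Hsf2 in level. Hsf1 was at 70.6, 71.7 and 74.4 FPKM in young replicates 1 to 3, 102, 82.5 and 111 in aged and 77.3, 74.7 and 91.1 in NMN. As deposited, the young values were tightly grouped and below all aged and all NMN values, while NMN and aged overlapped. After scaling, the young values overlap those of both other groups. Its log2 change was 0.38 ± 0.19 in aged against young (limma adjusted p = 0.328) and 0.57 without aged replicate 2 (adjusted p = 0.0905; 0.03401 to 0.536 over all alternatives). Hsf2 was listed at 0.205 to 0.784 FPKM.

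**Figure D2:**
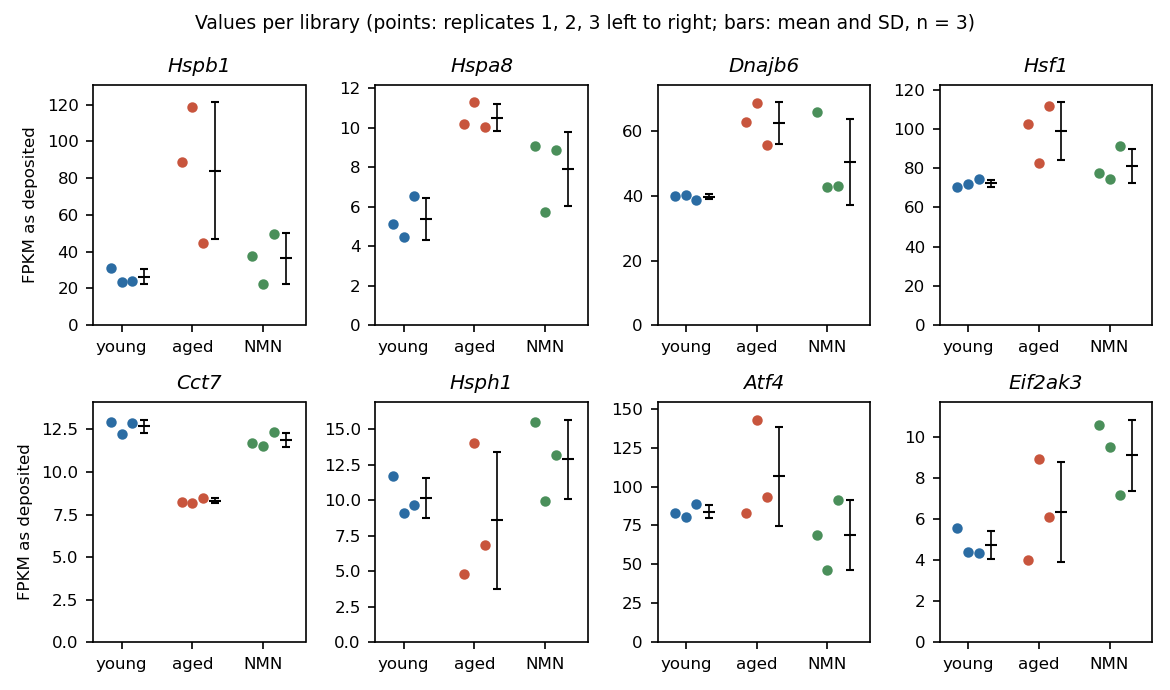
FPKM as deposited in each of the 9 libraries for 8 members on linear axes from 0, with points for replicates 1 to 3 and bars for the mean and SD (n = 3). Hspb1, Hspa8, Dnajb6 and Hsf1 are higher in all aged than in all young libraries, and Cct7 is lower in the aged than in all other libraries.

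TRiC needs its 8 subunits in equal number. Their mRNAs as listed were spread over more than 2 orders of magnitude in FPKM, a span that rests on the untested Cct6a. The means of the tested subunits over the 9 libraries ran from 1.52 (Cct3) to 44.2 FPKM (Cct2). Cct2 was the highest, at 41.7, 39.3 and 33.5 FPKM in young replicates 1 to 3, 40.0, 77.3 and 32.4 in aged and 67.1, 28.2 and 38.2 in NMN. It was highest in aged replicate 2 and NMN replicate 1, and the groups overlapped. Below it came Cct5 (22.95 to 85.9), Cct8 (15.5 to 22.2), Cct7 (8.203 to 12.9), Tcp1 (5.26 to 11.5), Cct4 (2.41 to 8.18) and Cct3 (0.946 to 2.49). Over the 9 libraries the ranges of neighbours in this order overlapped, apart from Cct5 with Cct8 and Cct8 with Cct7. Cct6a stood far below the rest, listed at 0.0165 to 0.458 FPKM, and was not tested.

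The tested subunits lay on both sides of 0. In aged against young oocytes 4 of the 7 tested subunits had a higher and 3 a lower mean log2 value, with a median change of 0.17. Cct7, the eta subunit, was at 12.9, 12.2 and 12.9 FPKM in young replicates 1 to 3, 8.24, 8.203 and 8.48 in aged and 11.7, 11.5 and 12.3 in NMN. The aged values were close together and below all young and all NMN values. NMN values lay just under young ones, except that NMN replicate 3 exceeded young replicate 2. The means were 12.7 ± 0.393, 8.305 ± 0.149 and 11.9 ± 0.411 FPKM (SD, n = 3). The change on the log2 scale was -0.61 ± 0.16 in aged against young (limma unadjusted p = 0.00331, adjusted p = 0.0837) and 0.47 ± 0.16 in NMN against aged (unadjusted p = 0.0138, adjusted p = 0.309).

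Cct7 shares an exon stretch with Pradc1 on the other strand, and Smart-seq2 does not keep the strand. Pradc1 had 1.27 ± 0.651 FPKM in young, 1.82 ± 0.381 in aged and 1.226 ± 0.242 in NMN (SD, n = 3), and its part in the Cct7 values was not tested. Cct5, the epsilon subunit, was at 27.8, 31.5 and 23.2 FPKM in young replicates 1 to 3, 49.9, 85.9 and 32.98 in aged and 56.1, 22.95 and 43.9 in NMN. All aged values were above all young ones, with 85.9 FPKM in aged replicate 2, and NMN spanned both. Its log2 change in aged against young was 0.85 ± 0.34 (limma adjusted p = 0.2205) and 0.57 without aged replicate 2 (adjusted p = 0.418; 0.137 to 0.501 over all alternatives). With library quality weights it was 0.52.

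In young replicates 1 to 3 the ratio of Cct5 to Cct7 was 2.15, 2.58 and 1.803. It was 6.06, 10.5 and 3.89 in aged replicates and 4.79, 1.99 and 3.56 in NMN replicates. Every aged library thus had a higher ratio than every young one. The pair was chosen after its values were seen, so this is a description. Cct4 was at 5.01, 8.18 and 6.29 FPKM in young replicates 1 to 3, 3.31, 4.97 and 5.14 in aged and 2.41, 3.74 and 5.53 in NMN, lowest in NMN replicate 1 and highest in young replicate 2. In NMN against young its log2 change was -0.68 ± 0.27 (limma unadjusted p = 0.0308, adjusted p = 0.549), and NMN replicate 3 lay within the young range. Without NMN replicate 1 it was -0.43 (adjusted p = 0.9997, 0.251 to 0.9997 over all alternatives). Over Cct2, Cct3, Cct8 and Tcp1 the limma adjusted p in the 3 comparisons ran from 0.578 to 0.976.

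**Figure D3:**
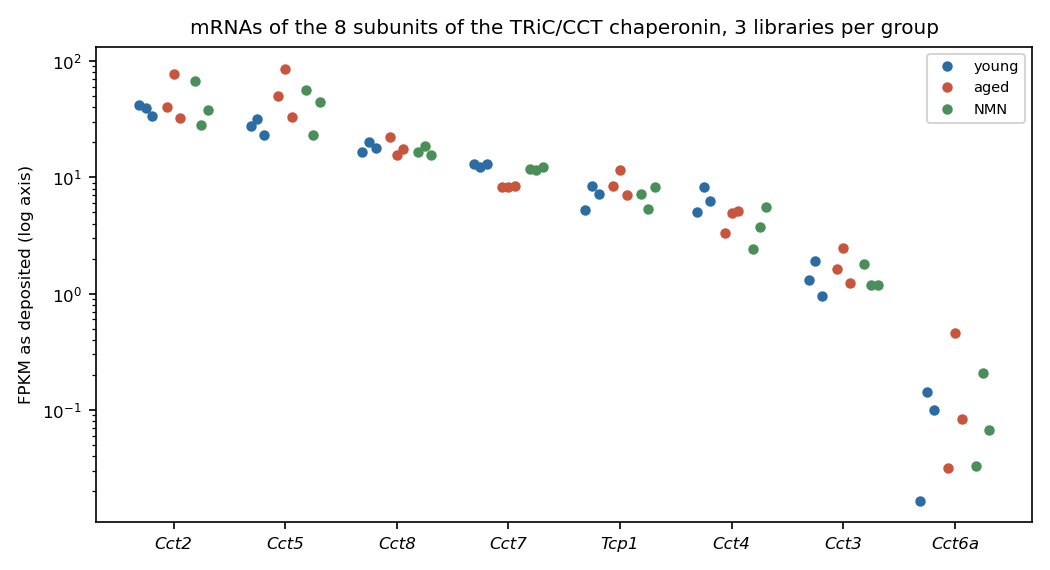
FPKM as deposited (log axis) of the 8 TRiC subunit mRNAs in the 9 libraries, ordered by mean level, with replicates 1 to 3 from left to right in each group. Cct2 and Cct5 are highest in aged replicate 2, Cct7 is lowest in the 3 aged libraries, and Cct6a lies below 0.5 FPKM in all 9.

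In the ER chaperone group no member had an unadjusted p under 0.05 in any comparison. Dnajc3 (P58IPK), a J protein of the ER lumen that also restrains Eif2ak3, was the highest of its group, at 225, 191 and 184 FPKM in young replicates 1 to 3, 181, 197 and 163 in aged and 216, 175 and 193 in NMN. The groups overlapped, and its 9 values spanned 1.38-fold. Hsp90b1 (GRP94), the HSP90 of the ER, was at 98.7, 84.5 and 89.8 FPKM in young replicates 1 to 3, 95.5, 99.2 and 80.8 in aged and 80.3, 72.03 and 87.3 in NMN, with the NMN values low but overlapping both other groups. Hspa5 (BiP), the ER HSP70 and the usual readout of ER stress, was at 20.7, 23.2 and 19.1 FPKM in young replicates 1 to 3, 16.97, 33.1 and 26.7 in aged and 22.2, 22.7 and 20.6 in NMN. Only aged replicates 2 and 3 exceeded the young range, and aged replicate 1 was the lowest of all, so the aged libraries enclosed the others. The log2 change of Hspa5 was 0.17 in aged against young (95% interval -0.29 to 0.64), -0.16 in NMN against aged (-0.62 to 0.30) and 0.01 in NMN against young (-0.45 to 0.48).

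Dnajc3, Hsp90b1 and Hspa5 carry the ER stress element in the window searched, as do Pdia6, Calr and Canx. In aged against young oocytes the log2 changes of these 6 were 0.17 for Hspa5, 0.04 for Calr, -0.05 for Hsp90b1, -0.20 for Dnajc3, -0.21 for Canx and -0.25 for Pdia6. None had an unadjusted p under 0.05 in any comparison, and the limma adjusted p ran from 0.536 to 0.9999. Dnajb11, a J protein of BiP, ranged from 7.31 to 13.01, Hyou1, the exchange factor of BiP, from 2.83 to 5.596 and Hspa13, a further HSP70 of the ER, from 1.55 to 3.29 FPKM. Dnajb9, a BiP cofactor and an Ern1 target, was at 0.518 to 1.33 FPKM. Their limma adjusted p ran from 0.579 to 0.961.

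Disulfide isomerases and lectins fold the secreted glycoproteins of the oocyte, the zona pellucida among them. P4hb, the founding disulfide isomerase, was at 106, 112 and 103 FPKM in young replicates 1 to 3, 125, 90.1 and 159 in aged and 119, 135 and 123 in NMN. As deposited, the NMN values lay above the young ones, and the aged values, from lowest to highest, enclosed both. After scaling, the NMN and young values overlap. Canx and Calr, the membrane-bound and soluble lectins that hold glycoproteins, ranged from 64.9 to 95.7 and 44.6 to 85.7 FPKM, with the highest Calr value in aged replicate 2. The isomerase Pdia3, which works with both lectins, ranged from 47.7 to 70.02 FPKM, Pdia6 from 18.1 to 33.5 and Pdia4 from 9.18 to 13.2. In aged against young oocytes 3 of these 6 genes had a higher and 3 a lower mean log2 value, with changes from -0.25 to 0.14, and the limma adjusted p over the 3 comparisons ran from 0.564 to 0.9999.

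**Figure D4:**
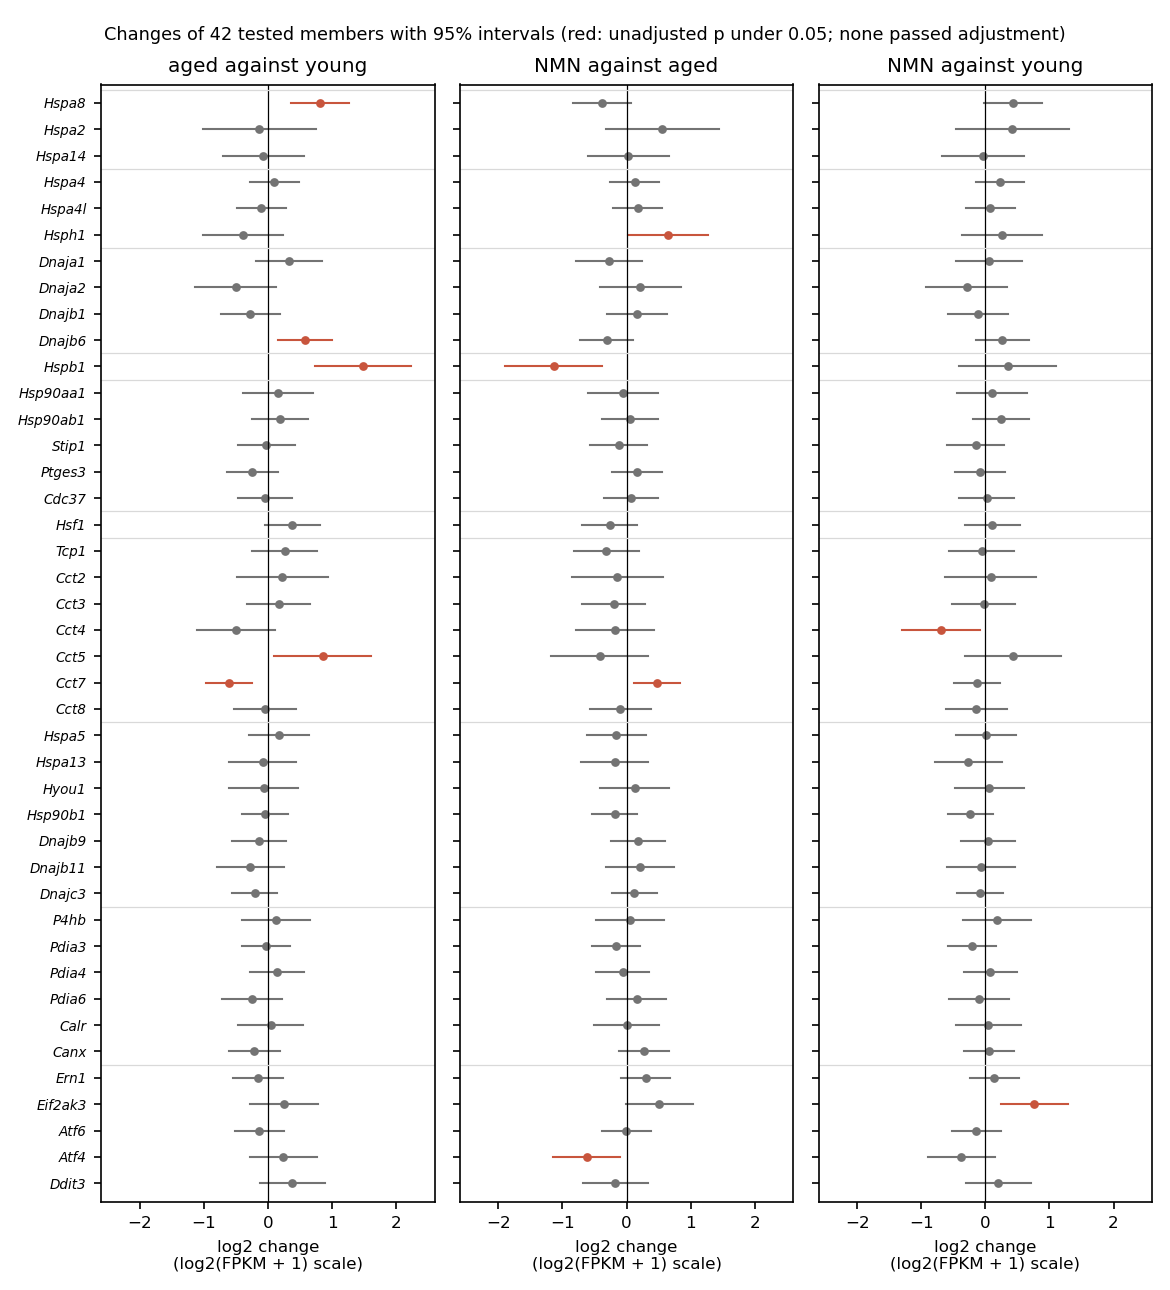
Log2 change with its 95% interval for the 42 tested members in 3 comparisons, on the log2(FPKM + 1) scale, grouped by role. Red marks an unadjusted limma p under 0.05. Hspb1 has the largest change of the members in aged against young (1.49) and in NMN against aged (-1.14), and no member passed after adjustment.

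Of the 3 sensors of the UPR, Ern1 mRNA was the most abundant. Ern1 (IRE1), a kinase and RNase that splices Xbp1, was at 176, 128 and 128 FPKM in young replicates 1 to 3, 138, 134 and 128 in aged and 175, 156 and 158 in NMN. Every NMN value exceeded every aged value, and young replicate 1 was the highest of all. The difference was 0.29 ± 0.17 on the log2 scale in NMN against aged (limma adjusted p = 0.553). Eif2ak3 (PERK), which slows translation by phosphorylating eIF2 alpha, was at 5.55, 4.38 and 4.35 FPKM in young replicates 1 to 3, 4.03, 8.92 and 6.097 in aged and 10.6, 9.51 and 7.19 in NMN. The NMN values lay above all young ones, and aged replicate 2 lay among them. The log2 change was 0.76 ± 0.24 in NMN against young (95% interval 0.24 to 1.29, limma unadjusted p = 0.00870, adjusted p = 0.387), 0.51 ± 0.24 in NMN against aged (adjusted p = 0.453) and 0.25 ± 0.24 in aged against young (adjusted p = 0.611). Atf6, the sensor cut in the Golgi to yield a transcription factor, was the steadiest member, at 8.06 to 9.75 FPKM, a 1.21-fold range over the 9 libraries.

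Downstream of the sensors stand the transcription factors. Atf4, which is translated when eIF2 alpha is phosphorylated, was at 83.01, 80.2 and 88.5 FPKM in young replicates 1 to 3, 83.04, 143 and 93.3 in aged and 68.9, 46.6 and 91.4 in NMN. Aged replicate 2 was the highest and NMN replicate 2 the lowest, and the NMN and aged groups overlapped. The log2 change was -0.62 ± 0.23 in NMN against aged (limma unadjusted p = 0.0242, adjusted p = 0.373) and -0.38 ± 0.23 in NMN against young (adjusted p = 0.714). The first of these was -0.41 without NMN replicate 2 and -0.32 with library quality weights (adjusted p from 0.307 to 0.693 over all alternatives). The second was -0.16 without NMN replicate 2, -0.59 without NMN replicate 3 and -0.22 with the weights (0.472 to 0.9997). Ddit3 (CHOP), the death-promoting target of Atf4, ranged from 0.788 to 2.69 FPKM with adjusted p from 0.413 to 0.826. Xbp1 was listed at 0 or at up to 0.0708 FPKM in 8 libraries and was not tested. It was at 1.27 FPKM in aged replicate 2, the library with the highest cumulus marker sum. Spliced and unspliced Xbp1 are not separated in the table.

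Of 156 further genes of protein folding (mitochondrial chaperones, other J proteins and cochaperones, prefoldins, ER folding and degradation factors and other stress response genes), 103 were tested. In aged against young oocytes 2 passed, both higher, or 1.94% against the background of 2.17%. At an unadjusted p under 0.05 there were 18, or 17.5% against 18.3%. Pdcl3, a phosducin-like cofactor of TRiC, had a mean of 8.15 ± 1.33 FPKM in young and 26.9 ± 8.77 in aged (SD, n = 3). The log2 change on scaled values was 1.52 ± 0.27 SE (limma adjusted p = 0.02602). Its values were 9.67, 7.59 and 7.202 FPKM in young replicates 1 to 3, 21.9, 37.01 and 21.7 in aged and 29.01, 15.5 and 13.7 in NMN, so all aged and all NMN libraries exceeded all young ones. In NMN against young the log2 change was 1.05 ± 0.27 (adjusted p = 0.275). The call in aged against young was lost without young replicate 1, 2 or 3 (adjusted p = 0.0765, 0.107 and 0.123) or aged replicate 3 (0.0641), and the range over all alternatives was 0.002197 to 0.123.

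Erp44, which retains thiol-bearing proteins in the early secretory pathway, stood at 15.3 ± 2.87 FPKM in young and 32.8 ± 10.3 in aged (SD, n = 3). The log2 change on scaled values was 0.97 ± 0.21 SE (limma adjusted p = 0.0441). Its values were 15.6, 18.1 and 12.3 FPKM in young replicates 1 to 3, 24.6, 44.4 and 29.6 in aged and 19.3, 18.1 and 17.1 in NMN. The aged libraries exceeded the other 6, with aged replicate 2 highest, and the NMN libraries lay close to the young ones (NMN against aged -0.77 ± 0.21, adjusted p = 0.191). The call in aged against young was lost without any 1 library other than aged replicate 1, with an adjusted p of 0.199 without young replicate 3 and 0.0667 without aged replicate 2, in a range of 0.0118 to 0.199 over all alternatives.

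In NMN against aged and in NMN against young oocytes 0 of these 103 genes passed the limma test, with 12 and 4 at an unadjusted p under 0.05 (11.7% against the background of 11.4%, and 3.88% against 8.12%). Txndc5, an ER disulfide isomerase, was at 79.8, 64.2 and 73.05 FPKM in young replicates 1 to 3, 40.6, 47.6 and 58.2 in aged and 88.7, 71.3 and 72.4 in NMN, with all aged values below all others. Its log2 change was 0.68 ± 0.18 in NMN against aged (adjusted p = 0.194) and -0.63 ± 0.18 in aged against young (adjusted p = 0.115). Sugt1, an HSP90 cochaperone of kinetochore assembly, was at 75.2, 86.4 and 79.5 FPKM in young replicates 1 to 3, 57.1, 44.1 and 55.8 in aged and 43.3, 58.7 and 63.5 in NMN. Both aged and NMN values lay below all young ones, with log2 changes of -0.67 ± 0.22 (adjusted p = 0.153) and -0.60 ± 0.22 (adjusted p = 0.497). The 2 comparisons with aged share the aged libraries and the 2 with young share the young ones, so values that lie apart in one group appear in both.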

How the data were processed

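The authors deposited 1 table whose name says raw counts but whose values are FPKM. They are fractional. In genes with a single transcript longer than 1500 nt, 96.6 to 97.7% of low values corresponded to whole reads within 0.02 once transcript length was allowed for, which gave the depth. Per the submitters' processing notes, Bowtie2 2.2.5, RSEM and mouse build mm9 were used; annotation and filters are not given in the sources used here. In all 22487 genes matched a symbol in GENCODE M21, and 11 members share an exon stretch with another gene there. Columns were matched to samples by description and title.

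FPKM were divided by trimmed-mean factors (30% by ratio, 5% by level), and genes reaching 1 FPKM in 3 or more libraries were fitted on log2(FPKM + 1) in limma 3.58.1 (R 4.3.3, trend and robust moderation), with all 9 libraries in 1 fit of group means and Benjamini-Hochberg adjustment over all 9168 genes. The factors ran from 0.945 (aged replicate 1) to 1.12 (aged replicate 2). Values per library, their means and the overlap of groups are as deposited, before this division. The pseudocount of 1 understates changes of low genes. The steps were run on simulated data with noise independent between genes and libraries. This does not cover a library that deviates as a whole. Alternatives changed the filter, pseudocount, scaling, moderation, library weights, groups in the fit and replicate block, or left out 1 library. Same-group libraries differed beyond sampling noise (chi-square per degree of freedom 19.17 to 139). The top of this range came from aged replicate 2, at 139 against aged replicate 1 and 136 against aged replicate 3. Every other pair was at 68.25 or less. Same-numbered libraries deviated together for NMN and young (correlations 0.497, 0.118 and 0.142), each above a limit of 0.1. The labels tie replicate numbers to no animal or day, so pairing was not established. The main fit was unpaired, with the replicate block as an alternative. For the pair aged and young they were -0.339, -0.266 and 0.314, and between the NMN and aged groups -0.372, -0.359 and 0.199.

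Values in every library were given for the 4 members with the smallest p per comparison, the highest member of each role group, and called genes of the further list (otherwise its 2 with the smallest p); Cct5, Ptges3, Hsp90b1 and Hspa5 were added after their values were seen, and the other members were given by range. Members, lists and tests were chosen with earlier results of these data known.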

Additional observations from a re-analysis of the deposited data

How the results depend on the processing

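The count of 0 members called held under all 18 alternatives in NMN against young, 17 in NMN against aged and 15 in aged against young oocytes. With library quality weights 5 members were called in aged against young (Cct7, Dnajb6, Hsf1, Hspa8 and Hspb1) and 1 in NMN against aged (Hsph1). Leaving out each library in turn gave 0 to 1 members in aged against young, the 1 being Hspb1. Over all genes the same alternatives gave 22 (without young replicate 2) to 918 calls (library weights) against 199 in aged against young, 4 (at a minimum of 10 FPKM) to 162 against 20 in NMN against aged, and 0 to 72 against 7 in NMN against young. The fit with the replicate block, which pairs same-numbered libraries, called 0 members in each comparison and 0 genes of any kind in NMN against young. With the block Erp44 had a log2 change of 0.97 and an adjusted p of 0.0686 in aged against young, and it changed no other call named here. Without the low-value filter the adjusted p was 0.0945 for Pdcl3 and 0.142 for Erp44, with 22526 genes tested. Erp44 was also lost with values as deposited (0.0599) and with the 2 groups alone (0.0908). None of the 20 single-gene changes reversed in the 358 values that the 18 alternatives gave for them. Of these values 8 newly passed the threshold and 17 no longer did. All but those of Cct5 and Hsf1 were chosen for a small p in the same libraries, so reversals were unlikely beforehand. Depth limits members near or under 0.0921 FPKM, a level that covers counting error only.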
